A study of Mus musculus with 40 samples.

Results

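The amygdala of mice with alanine at residue 92 of the type 2 deiodinase (Ala) was compared with that of mice with threonine there (Thr), gene by gene, on microarrays. The 8 arrays whose titles name the amygdala, of 40 in the series, were used: numbers 1 to 4 are Ala and numbers 5 to 8 are Thr. Per the labels, the genotypes are Ala92D2HY and Thr92D2HY, the background strain is written C56BL/6 and the animals were 8 to 10 weeks old. What HY stands for is not given in the sources used here, nor is the sex of the animals or how the allele was made. Both genotypes had a chow diet, were housed at 22 °C in a 12-h light cycle, and gave total RNA extracted with Trizol. No label says which animal an array came from, and p-values therefore reflect variation among arrays that may be partly technical.

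Type 2 deiodinase, encoded by Dio2, removes an iodine from the prohormone thyroxine and so makes T3, the form that binds thyroid hormone receptors. In the brain it works mainly in glia, sits in the membrane of the endoplasmic reticulum and is switched off by ubiquitination. Neurons take up T3 and inactivate it with the type 3 deiodinase, encoded by Dio3. The amygdala is a group of nuclei in the temporal lobe: the basolateral complex has mainly glutamatergic neurons, the central and medial nuclei and the intercalated cells have mainly GABAergic ones. It serves fear learning, social behaviour and feeding. The series title names endoplasmic reticulum stress and hypothyroidism of the brain, so genes of T3 action and of the unfolded protein response are described below with the others.

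Values are the authors' log2 signals. The scale is stretched by a step that no source used here names, since 330 rows exceeded 16 on an amygdala array, the log2 limit of a 16-bit scanner, and so differences are given in deposited log2 units and not as folds. Negative control rows had medians of 5.82 to 5.92, and a gene at or below that was not well above background. The 8 arrays correlated with each other at 0.975 to 0.990 across all genes. Of the 12 basolateral markers, 9 were higher in the amygdala than in the mean of the other 4 regions at an adjusted p under 0.05 and a difference of at least 1, as were 5 of 14 central and 3 of 10 medial markers. Over all 14978 genes in that fit 3.4% were higher and 2.44% lower. The basolateral list had the largest share of higher markers of the 3. The list of excitatory neurons, not particular to the amygdala, had 6 of 8 higher. All lists were chosen with earlier results of these data known, so these counts are no independent check of the tissue. Lists of other tissue had higher markers too, with 5 of 14 for neocortex and piriform and 3 of 13 for hypothalamus, against 1 of 14 for striatum and 0 of 14 for choroid plexus.

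Several arrays stood apart in markers of other tissue. Ala 1 had a mean level of the striatum list of 11.42, against 8.45 to 8.64 on the other Ala arrays and 8.76 to 9.59 on the Thr arrays. It also had the cerebellar transcripts Gabra6 at 10.12 and Cbln3 at 7.78, against at most 6.29 and 5.24 on the other 7 arrays (genes looked at after their values were seen). Ala 2 had the choroid plexus list at 8.10, against 5.45 to 6.50 elsewhere, with the plexus product Ttr at 16.93, and the hippocampus list at 9.52, against 7.50 to 8.10 elsewhere. Ala 1 and Thr 5 were alike in having little Dcn, a matrix proteoglycan of meninges and some neurons, at 8.79 and 8.87 against 12.38 to 15.38 on the other 6 arrays. They were also lowest in Trh, the precursor of thyrotropin-releasing hormone, at 4.91 and 5.06 against 6.71 to 10.01. In bulk tissue, fewer cells of a type and less RNA per cell cannot be told apart.

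**Figure D1:**
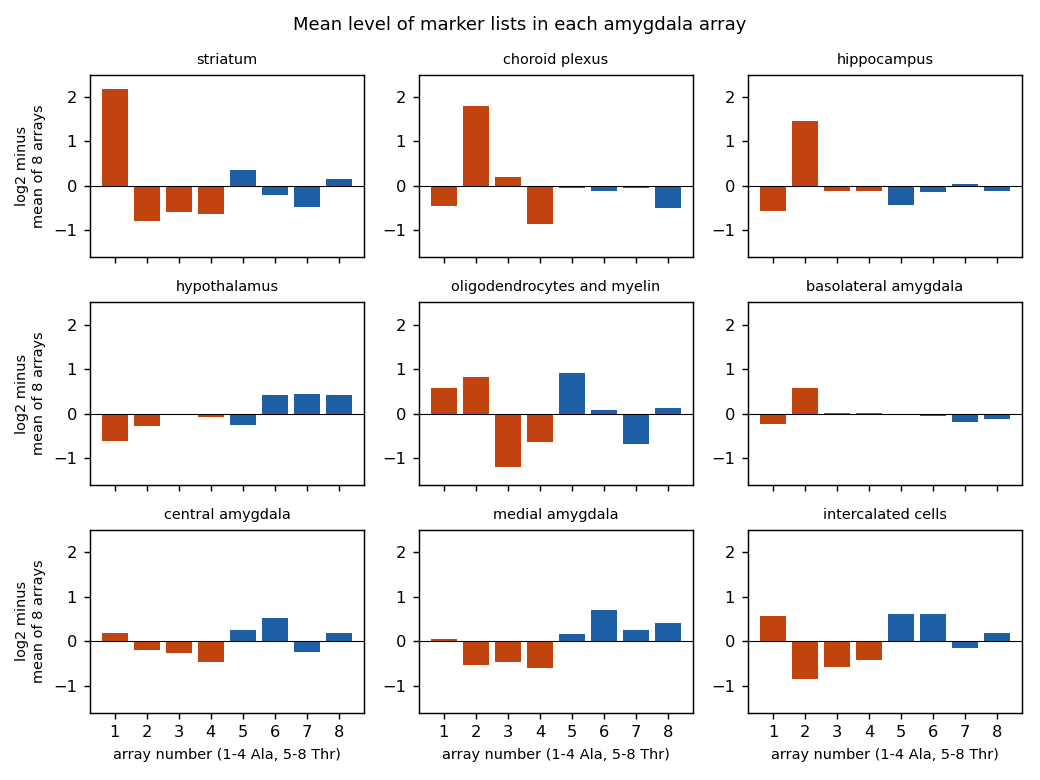
Mean log2 level of 9 marker lists on each amygdala array, minus the mean of the 8 arrays (orange, Ala arrays 1 to 4; blue, Thr arrays 5 to 8). Ala 1 stands out in the striatum list, Ala 2 in the choroid plexus and hippocampus lists, and the medial amygdala list is lower on each Ala array than on any Thr array, which no longer holds without its member Gpx3.

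Between genotypes, 5 of 13377 genes were called at an adjusted p under 0.05 (0.0374% of those tested). All 5 were lower in Ala: Gpx3, Gabrq, Pbx3, Barhl2 and Cartpt. None was called higher by limma, although 346 genes (2.59%) had a higher level at an unadjusted p under 0.05 and 360 (2.69%) a lower one, together 5.28% of those tested. Differences over all genes were balanced, with a median of 0.01 and 6871 genes positive (51.4%) against 6506 negative (48.6%). The 4 Ala arrays all lay below the 4 Thr arrays for 210 genes (1.57%) and all above them for 215 genes (1.61%), together 3.18%.

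**Figure D2:**
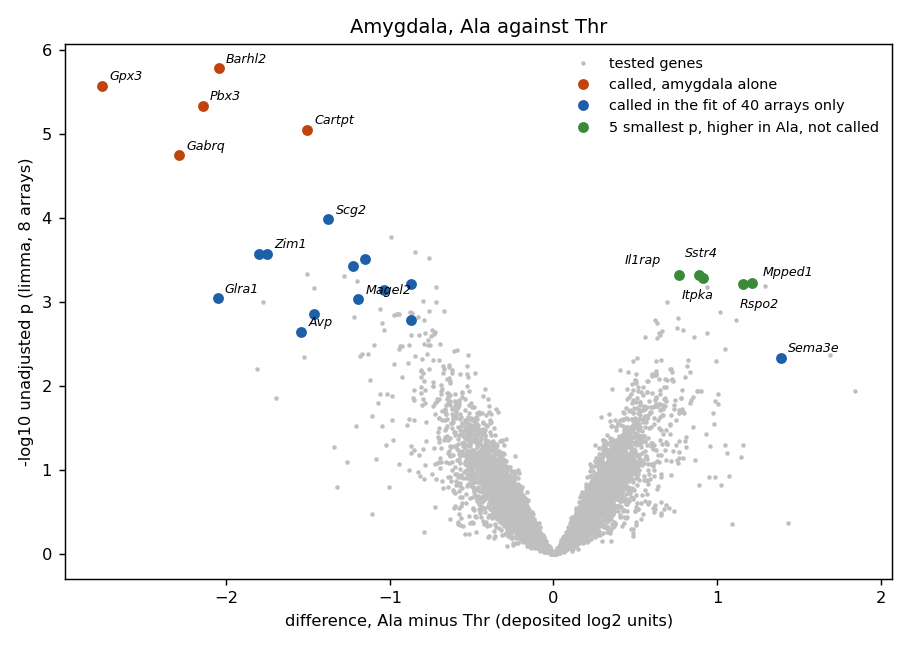
Difference of each of the 13377 tested genes, Ala minus Thr in deposited log2 units, against the −log10 of its unadjusted limma p on the 8 arrays. The 5 called genes (orange) lie on the lower side, and the 13 plotted genes called only in the fit of 40 arrays (blue) are also lower in Ala except Sema3e.

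Gpx3, a secreted selenoprotein that reduces peroxides with glutathione, fell most. Its levels on the Ala arrays were 8.66, 7.87, 8.14 and 8.19, and on the Thr arrays 10.07, 12.12, 10.99 and 10.71. The groups did not overlap, and the lowest Thr array lay well above the highest Ala array. The difference was -2.76 ± 0.35 (SE; adjusted p = 0.0176), between means of 8.21 ± 0.33 and 10.97 ± 0.86 (SD, n = 4 each).

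Gabrq encodes the theta subunit of the GABA-A receptor, found in hypothalamus, amygdala and monoamine cell groups. It was at 4.73, 5.31, 5.51 and 4.76 in Ala and at 6.38, 8.31, 7.38 and 7.40 in Thr, a difference of -2.29 ± 0.35 (adjusted p = 0.0477). All 4 Ala arrays were below the negative control medians and all 4 Thr arrays above them, so the Ala level is known only as not well above background.

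Barhl2, a homeobox transcription factor of the developing brain and retina, had the smallest p. Its levels were 5.13, 4.79, 5.44 and 5.85 in Ala and 6.93, 7.48, 7.47 and 7.50 in Thr. The Thr values other than Thr 5 were within 0.03 of each other. Of the Ala values, 3 were below the negative control medians and Ala 4 was among them, so the Ala mean of 5.30 ± 0.45 is not well above background (difference -2.04 ± 0.25, adjusted p = 0.0176).

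Pbx3, a homeodomain cofactor of other transcription factors, was at 8.01, 7.09, 7.82 and 7.42 in Ala and at 10.32, 10.01, 9.03 and 9.55 in Thr. Again no Ala array reached the lowest Thr array, and the difference was -2.14 ± 0.28 (adjusted p = 0.0204).

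Cartpt encodes the precursor of CART, a neuropeptide of feeding, stress and reward circuits. It was at 6.68, 6.72, 6.95 and 6.57 in Ala and at 8.48, 7.74, 8.53 and 8.20 in Thr. The Ala values were close together at 6.73 ± 0.16, and the difference was -1.51 ± 0.21 (adjusted p = 0.0297).

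**Figure D3:**
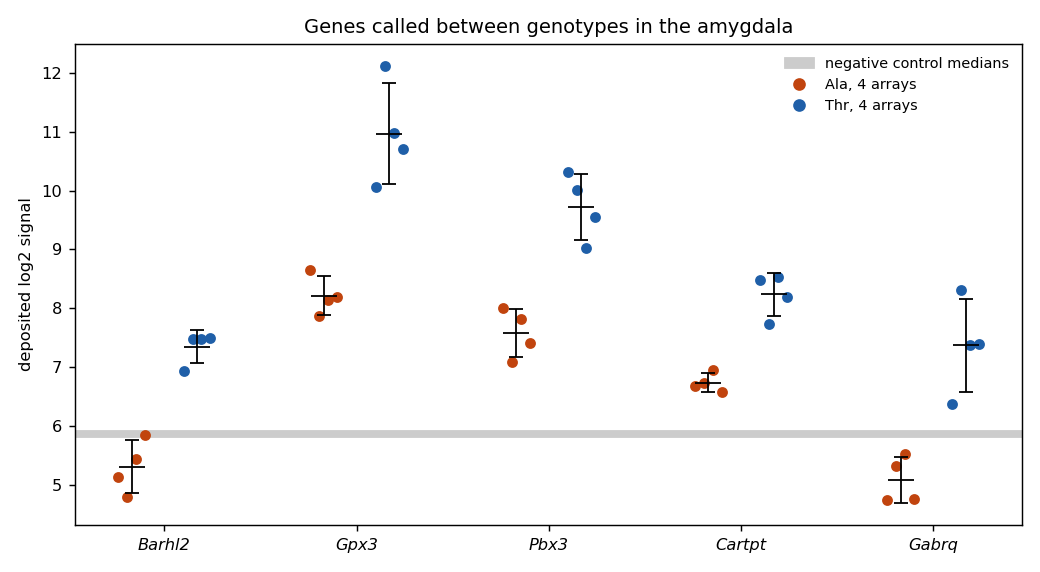
Deposited log2 signal of the 5 called genes on each amygdala array (points), with the mean and SD of each genotype (bars) and the range of the negative control medians (grey band). For each gene all 4 Ala arrays lie below all 4 Thr arrays, and the Ala arrays of Gabrq, and those of Barhl2 except Ala 4, lie below the grey band.

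These calls depend on single arrays. Leaving out Ala 1, the array high in striatal markers, gave 12 calls that held all 5 genes. Leaving out Ala 2, Ala 3 or Thr 8 gave 0 calls with limma (755, 733 and 534 genes at an unadjusted p under 0.05), Ala 4 gave 2, Thr 5 gave 3, Thr 6 gave 2 and Thr 7 gave 1. The sign of each of the 5 genes stayed negative in every such fit, with adjusted p up to 0.0938 for Barhl2 and Gpx3, 0.135 for Pbx3, 0.167 for Cartpt and 0.281 for Gabrq over all alternatives run. With the striatum list as a covariate 7 genes were called, with the choroid plexus list 5, and both held all 5.

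In the other 4 regions the genotype differences of these genes ran from -0.48 to 0.66, with no call. Gpx3 was at 6.22 to 7.92 in group means of the other regions, lower than in either amygdala group. Gabrq was at 3.71 to 5.16 there, below the negative control medians of the amygdala arrays. Cartpt was at 5.23 to 7.05 there. Barhl2 was at 12.54 in the cerebellum of both genotypes and at 4.28 to 5.55 in hippocampus, prefrontal cortex and striatum. Ala 1, with the highest Gabra6 and Cbln3, had Barhl2 at 5.13, and Thr 6, Thr 7 and Thr 8, with Gabra6 at 3.89 to 4.45, had it at 7.47 to 7.50. Of other genes abundant in the cerebellum, Pcp2 and Fat2 were also highest on Ala 1 (9.04 and 5.37). Zic1 and Calb1 were highest on Thr 7 (10.15 and 13.04, against 10.00 and 12.30 on Ala 1), and Calb1 was at least 11.57 on every amygdala array. The part of cerebellar tissue in the Barhl2 difference was not tested. Pbx3 was highest in prefrontal cortex and striatum, at 11.79 to 12.48, and next in cerebellum, at 9.25 and 9.68.

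Whether the genotype difference in the amygdala was unlike that in the other regions was tested directly, as the amygdala difference minus the mean of the other 4. Of 14978 genes 12 were called (0.0801%), 10 lower (0.0668%) and 2 higher (0.0134%). They held 4 of the 5 genes above: Gpx3 at -2.65 ± 0.43 (adjusted p = 0.00296), Gabrq at -2.41 ± 0.40 (0.00296), Barhl2 at -2.13 ± 0.40 (0.0162) and Cartpt at -1.49 ± 0.30 (0.0275). Pbx3 was at -1.94 ± 0.60 and was not called (0.550). The other lower genes were Magel2, Zim1, Scg2, Avp, Vwa5b1 and Gpr165, and the higher ones the odorant receptor gene Olfr898 and the cytochrome P450 gene Cyp3a11. Magel2 and Avp exceeded the filter's threshold of 4.60 on the 4 Thr amygdala arrays and on none of the other 36, so their calls follow in part from the filter and are given as values only. Cyp3a11 exceeded it on 2 Ala and 0 Thr amygdala arrays, was too dim to be tested in the amygdala alone, and reached at most 5.70 in other regions. Olfr898 had a Thr mean of 5.62, below background, and differences of -0.58 to -0.13 in the other regions. Without Ala 2 there were 7 calls, without Thr 6, Thr 7 or Thr 8 there were 3, 4 and 2, and without both Ala 1 and Thr 5 there were 3.

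**Figure D4:**
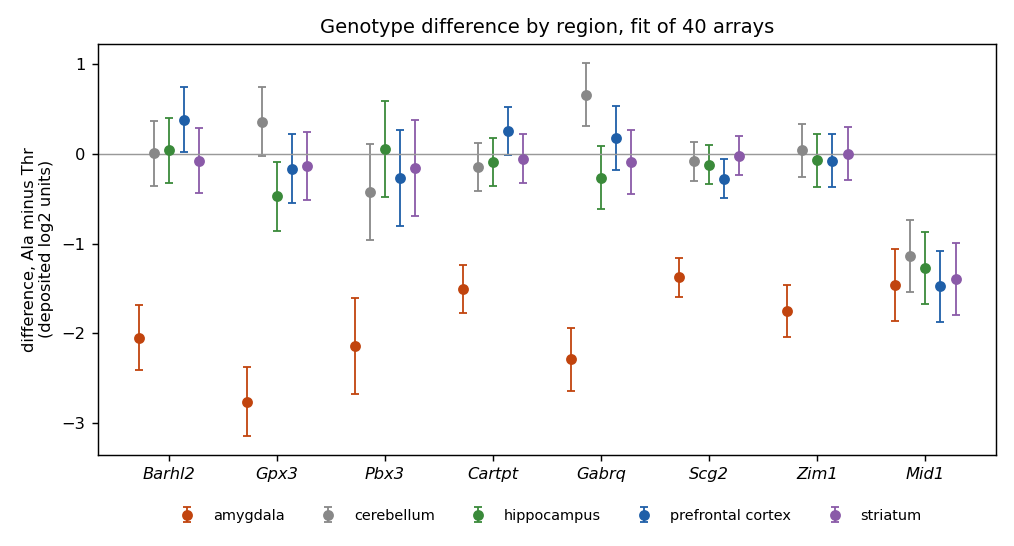
Difference Ala minus Thr with its standard error in each of the 5 regions, from the fit of 40 arrays, for the 5 called genes and for Scg2, Zim1 and Mid1. The first 7 genes have a negative difference of over 1 unit in the amygdala and differences between -0.48 and 0.66 elsewhere, while Mid1 is lower in Ala by -1.14 to -1.48 in every region.

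With the spread estimated from all 40 arrays, 18 genes were called in the amygdala (0.12%), 17 lower (0.113%) and 1 higher (0.00668%) in Ala. This fit takes 1 spread per gene for all regions and treats the arrays as independent, and no label says whether regions share animals. Avp had an SD of 1.01 in Thr amygdala against 0.12 to 0.51 in other regions, and its SE was 0.40 alone and 0.30 here. For Sema3e the SE was 0.41 alone and 0.31 here. It was larger here for Gpr165 (0.38, against 0.36 alone) and Fndc9 (0.25, against 0.23 alone). Barhl2, Cartpt, Gabrq and Gpx3 were called in both fits, and Pbx3 was not called with 40 arrays (adjusted p = 0.135). The 14 others were called only with 40 arrays, and the adjusted p given for them next is from that fit, after the one from the amygdala alone.

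Scg2, the precursor of secretogranin II in dense-core vesicles, was at 14.16, 13.79, 13.57 and 13.10 in Ala and at 14.75, 15.41, 14.53 and 15.44 in Thr. The groups did not overlap, and the difference of -1.38 ± 0.25 had an adjusted p of 0.230 alone and 0.000916 with 40 arrays. Without Ala 1 it was called in the amygdala alone (-1.54, adjusted p = 0.0274). In the other regions Scg2 was at 12.97 to 15.28, with differences of -0.28 to -0.02.

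The upstream 250 bases of Cartpt and Scg2 are shown because, among the genes called in either fit and matched to a promoter, only these had the cAMP response element TGACGTCA, in capitals, and because both encode cargo of dense-core vesicles. Gpx3 is shown as the gene with the largest difference. Of the 19 called genes 17 were matched in the RefSeq promoter table (GRCm38.p6), with 18 promoters, and the element, which reads the same on both strands, was in 1.55% of the 32851 promoters in the table. Each is written 5′ to 3′ on the gene's strand, from 250 bases upstream to the base before the annotated start.
Cartpt (chr13:99900684-99900933, minus strand): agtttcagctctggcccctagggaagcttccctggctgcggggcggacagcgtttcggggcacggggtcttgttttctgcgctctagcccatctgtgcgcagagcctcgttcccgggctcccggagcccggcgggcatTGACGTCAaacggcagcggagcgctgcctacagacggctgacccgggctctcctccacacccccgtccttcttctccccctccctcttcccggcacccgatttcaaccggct
Scg2 (chr1:79440027-79440276, minus strand): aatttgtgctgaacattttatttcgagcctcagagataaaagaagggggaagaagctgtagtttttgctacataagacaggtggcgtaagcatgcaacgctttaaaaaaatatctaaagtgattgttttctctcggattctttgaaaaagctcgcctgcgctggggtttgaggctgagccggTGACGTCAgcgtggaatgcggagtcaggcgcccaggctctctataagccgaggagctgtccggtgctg
Gpx3 (chr11:54902604-54902853, plus strand): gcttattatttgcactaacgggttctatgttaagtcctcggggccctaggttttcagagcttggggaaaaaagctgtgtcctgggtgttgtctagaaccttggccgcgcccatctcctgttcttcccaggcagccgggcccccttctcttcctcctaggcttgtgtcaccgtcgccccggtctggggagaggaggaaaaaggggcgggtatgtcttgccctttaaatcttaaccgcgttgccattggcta
The element begins 112 bases before the start in Cartpt and 68 bases before it in Scg2. The nuclear receptor half-site AGGTCA, searched on both strands, was in none of the 18 windows and in 14.0% of all promoters. These matches describe the letters of the windows, and the motifs were chosen after the genes were known.

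Imprinted genes, expressed from 1 parental copy and many of them active in hypothalamus and limbic brain, had 3 members among these calls, Zim1, Usp29 and Magel2. Of 25 tested members 19 had a negative difference (all genes, 48.6%), and the median was -0.31 (all genes, 0.01). In the amygdala alone 0 passed the limma test. At an unadjusted p under 0.05, 9 were lower and 0 higher (all genes, 2.69% and 2.59%). Zim1 was at 5.39, 6.67, 6.93 and 6.37 in Ala and at 7.51, 8.67, 7.62 and 8.55 in Thr (difference -1.75 ± 0.35; adjusted p 0.336 alone and 0.00201 with 40 arrays). No Ala array reached the lowest Thr array. Usp29 differed by -1.22 ± 0.26 (0.343 and 0.0156). Zim1 and Usp29 lie in the same imprinted cluster as Peg3, which differed by -0.61. Magel2, a gene of the Prader-Willi region, differed by -1.19 ± 0.28 (0.403 and 0.00457), but both its means, 3.98 and 5.17, were below background, and it passed the filter on dim genes through the 4 Thr arrays alone, so its call is no support for a difference. It is counted in the 19 negative members and in the 9 lower ones, where its sign follows from the filter. Ndn, of the same region, differed by -0.52, and Gnas, a G-protein subunit, by -0.31. Of the imprinted genes that arrays of both genotypes brought past the filter, Zim1 was also called in the test against the other regions.

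Receptor subunits for GABA and glycine were balanced in sign, with 8 of 16 members negative and a median of 0.01, and with Gabrq as the only call. The median changed sign in 10 of 23 alternatives. At an unadjusted p under 0.05, 6 were lower and 1 higher (all genes, 2.69% and 2.59%). The mean level of the list was 9.98 to 10.47 in Ala and 10.24 to 10.86 in Thr. Glra1, the alpha 1 subunit of the glycine receptor, was at 5.48, 3.89, 5.91 and 5.34 in Ala and at 5.97, 8.29, 7.09 and 7.49 in Thr. The highest Ala array lay just under the lowest Thr array, and the difference of -2.05 ± 0.48 was called with 40 arrays alone (adjusted p = 0.0232). The Ala mean of 5.16 was below background, so the Ala level is known only as not well above it. Glra3 and Glra2 differed by -1.18 and -0.85, while Glrb, the shared beta subunit, differed by 0.20 ± 0.13. Gabra5, the subunit of extrasynaptic receptors in hippocampus and amygdala, differed by 0.78 ± 0.27 (adjusted p = 0.853). Its highest array was Ala 2 at 15.73, the array with the most hippocampal markers, and the part of that tissue in its value was not tested. Among 15 ionotropic glutamate receptor subunits 9 were positive and the median was 0.05, with Grin2a at 0.66 ± 0.17 and Grik1 at -0.53 ± 0.21, groups not overlapping for either and neither called (adjusted p = 0.491 and 0.885).

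Neuropeptide precursors had 18 of 28 members negative, a median of -0.24 and Cartpt as the only call. Avp, the vasopressin precursor, was at 4.53, 4.07, 3.66 and 4.33 in Ala and at 4.67, 6.27, 6.79 and 5.02 in Thr, so only Thr 6 and Thr 7 were above background. Its difference of -1.54 ± 0.40 had an adjusted p of 0.0156 with 40 arrays. Avp passed the filter on dim genes (log2 4.60 on at least 4 arrays) through the 4 Thr arrays alone, so that a difference was bound to appear, and its call is no support for one. It is counted in the 18 negative members, where its sign follows from the filter. Nxph4, a neurexin ligand, differed by -1.22 ± 0.30 without overlap (adjusted p = 0.429). In the opposite direction Grp, gastrin-releasing peptide of basolateral neurons, was at 7.29, 10.09, 7.94 and 7.48 in Ala and at 6.06, 6.48, 6.96 and 6.52 in Thr, without overlap and not called (1.69). The abundant peptides Cck and Sst differed by 0.09 ± 0.23 and -0.22 ± 0.16. Tac1, the substance P precursor, was at 13.45 on Ala 1, at 10.23 to 10.71 on the other Ala arrays and at 11.66 to 11.98 in Thr. Its difference was -0.61 ± 0.54 with all arrays and -1.36 without Ala 1 (adjusted p = 0.0121), so this 1 array decided whether it was called.

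Granins and enzymes of peptide processing had 11 of 16 members negative and a median of -0.17, with none called in the amygdala alone. After Scg2 the smallest p was that of Resp18, a protein of dense-core vesicles, at -0.72 ± 0.26. Vgf, Chga and Chgb, secreted granins, differed by -0.23, -0.07 and -0.30, and Cpe, which trims peptide precursors, by 0.41.

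Of the markers of hypothalamus 8 of 10 tested were negative, with a median of -0.27 and Cartpt called. Both Cartpt and Avp are members, and Avp passed the filter through the 4 Thr arrays alone. The count, median and level of the list are therefore not independent of these genes. The mean level of the list was 4.98 to 5.56 in Ala and 5.33 to 6.04 in Thr, near or below background, and Hcrt and Pomc were too dim to be tested. The part of hypothalamic tissue in the differences of Cartpt and Avp was not tested. Of 12 thalamic markers 9 were negative, with a median of -0.06. Slc17a6, the vesicular glutamate transporter of thalamus, hypothalamus and medial amygdala, was at 8.61, 8.13, 10.10 and 9.88 in Ala and at 10.17, 11.46, 10.71 and 11.47 in Thr. The groups did not overlap (-1.77 ± 0.42), and it was not called (adjusted p = 0.403).

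Marker lists of the amygdaloid nuclei had medians of either sign. Medial markers were negative in 7 of 8 with a median of -0.42, and their mean level was lower on each Ala array (6.74 to 7.38) than on any Thr array (7.48 to 8.03). Without Gpx3 the mean of the other 7 was 6.53 to 7.20 in Ala and 7.10 to 7.45 in Thr, and Ala 1 overlapped the Thr arrays. The list was chosen with Gpx3 and Magel2 known to be low, so its direction is not independent of them. Central markers were negative in 12 of 13 with a median of -0.39 and none called. Nts, neurotensin, differed by -0.98 ± 0.39, Oxtr, the oxytocin receptor, by -0.79 ± 0.48, and Prkcd, which marks neurons that gate fear output, by -0.01. The groups overlapped for each of the 13, where 3.18% of all genes do not overlap.

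Intercalated-cell markers were negative in 5 of 6, with a median of -0.65 and none called. Tshz1, a zinc-finger factor that defines these clusters, was at 8.35, 8.44, 8.50 and 8.25 in Ala and at 9.07, 9.86, 8.93 and 8.96 in Thr, without overlap (-0.82 ± 0.22, adjusted p = 0.491). Oprm1, the mu opioid receptor, also had groups that did not overlap (-0.74 ± 0.24). Foxp2, another of their markers, was at 8.60 on Ala 1, at 5.18 to 5.93 on the other Ala arrays and at 6.80 to 8.30 in Thr. Ala 1, the array high in striatal markers, was above the highest Thr array, and Foxp2 is expressed in striatum too. The part of striatal tissue in its value was not tested.

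Basolateral markers split: 5 were negative and 7 positive of 12, with a median of 0.20 and none called. Rspo2, a Wnt pathway agonist that marks a group of basolateral neurons, was at 10.84, 11.81, 10.73 and 11.21 in Ala and at 10.55, 9.67, 9.97 and 9.77 in Thr. Fezf2, a factor of projection neurons, was at 11.23, 12.30, 11.43 and 10.81 in Ala and at 9.60, 10.36, 10.48 and 10.18 in Thr. In both, all Ala arrays lay above all Thr arrays, by 1.16 ± 0.26 and 1.29 ± 0.29 (adjusted p = 0.343 for each). Lmo3, a cofactor abundant in the basolateral nuclei, was at 15.21 on Ala 1 and at 16.65 to 17.59 on the other 7 arrays. Its difference was -0.88 ± 0.35.

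Genes of excitatory and inhibitory neurons had medians of opposite sign. Excitatory markers were positive in 6 of 8 with a median of 0.29, and inhibitory ones negative in 10 of 13 with a median of -0.23, none called in either list. Slc17a7, the main vesicular glutamate transporter of cortex and basolateral nuclei, differed by 0.28 ± 0.16. Slc17a6, the excitatory member with the smallest p, went against the median of its list (-1.77 ± 0.42). Neurod6, a factor of pallial excitatory neurons that is also in the basolateral list, had the largest positive difference of all tested genes, 1.84 ± 0.62. It overlapped between groups, at 12.82, 13.54, 10.26 and 11.16 in Ala and at 11.51, 9.39, 9.64 and 9.88 in Thr, with Ala 1 and Ala 2 highest (adjusted p = 0.834). Among inhibitory genes Dlx2 differed by -0.80 ± 0.28, the interneuron gene Adarb2 by -0.60 ± 0.21 and the GABA-synthesising enzyme Gad2 by -0.65 ± 0.28. Gad1, of the same function, differed by -0.14 ± 0.22. The 3 positive members were the interneuron genes Pvalb (0.64 ± 0.42), Vip (0.61 ± 0.29) and Npy (0.11 ± 0.37).

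**Figure D5:**
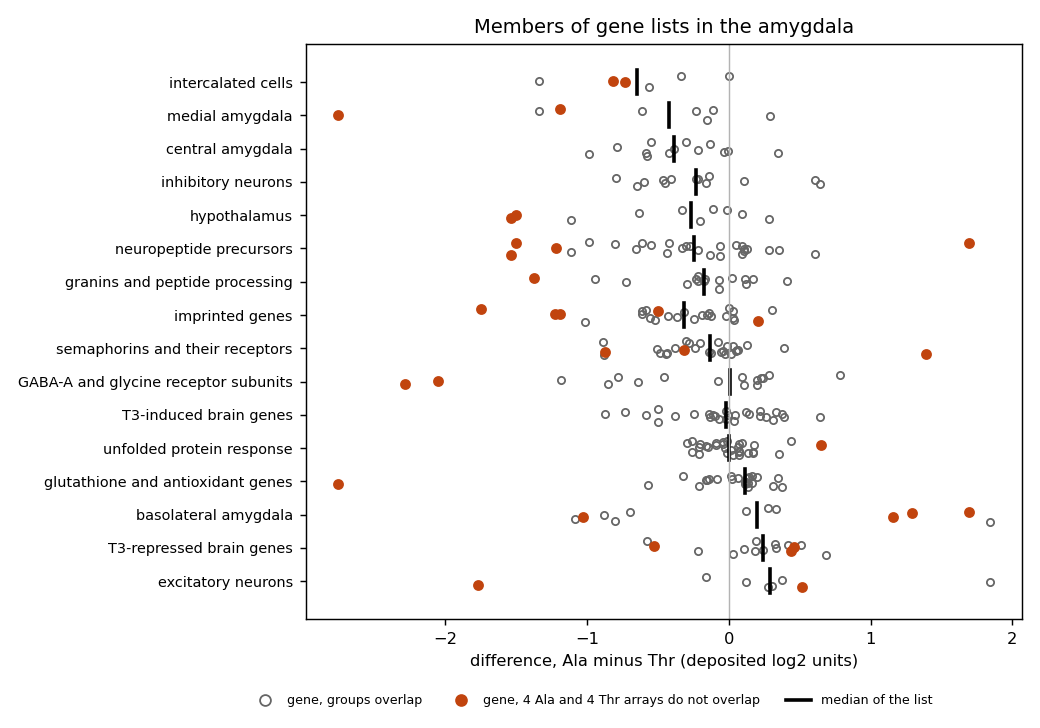
Difference Ala minus Thr in deposited log2 units of each tested member of 16 gene lists, with the median of each list (bar); filled points are genes whose 4 Ala and 4 Thr arrays do not overlap. Medial, central and intercalated lists lie to the left, and the T3-induced and unfolded protein response lists around 0. The largest positive value, 1.84, is that of Neurod6, which is in both the basolateral and excitatory lists. Neuropeptide precursors reach 1.69 (Grp, also in the basolateral list) and semaphorins 1.39 (Sema3e).

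The genes with the smallest p among those higher in Ala were Sstr4, Il1rap, Itpka, Mpped1 and Rspo2, all at an adjusted p of 0.343. Sstr4, a somatostatin receptor, was at 10.30, 10.58, 10.11 and 9.83 in Ala and at 9.19, 9.44, 9.49 and 9.14 in Thr (0.89 ± 0.19). Il1rap, the shared subunit of interleukin-1 family receptors, was nearly constant in Ala at 9.40 ± 0.09 and at 8.63 ± 0.17 in Thr. Itpka, an inositol kinase of dendritic spines, differed by 0.91 ± 0.20, and Mpped1 by 1.21 ± 0.27. All 5 had groups that did not overlap, as had 1.61% of all genes in that direction.

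Sema3e, a secreted axon guidance cue, was the only gene called higher with 40 arrays. It was at 10.60, 11.92, 9.77 and 9.59 in Ala and at 9.18, 8.82, 9.46 and 8.85 in Thr, so that Ala 3 and Ala 4 exceeded Thr 7 only slightly. Group means of Sema3e were 12.29 and 12.08 in hippocampus and 11.48 and 11.63 in striatum (Ala and Thr). Its highest amygdala arrays, Ala 2 and Ala 1, were those high in hippocampal and striatal markers. The part of those tissues in the amygdala values of Sema3e was not tested. The difference of 1.39 ± 0.41 had an adjusted p of 0.656 alone and 0.0453 with 40 arrays. Semaphorins and their receptors as a list were negative in 20 of 28 with a median of -0.13. Sema6d, a membrane-bound semaphorin, differed by -0.87 ± 0.19 without overlap and was called with 40 arrays (adjusted p = 0.0214). The remaining genes called only with 40 arrays, all lower in Ala, were Gpr165 (-1.80), Ccdc42 (-1.46), Fndc9 (-1.15), Vat1 (-1.03), Mc3r (-1.0) and Vwa5b1 (-0.87). Mc3r, a melanocortin receptor, and Ccdc42 had both means below background, and Mc3r was too dim to be tested in the amygdala alone.

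Genes of thyroid hormone handling had 10 of 17 members positive, a median of 0.10 (-0.03 without Ala 2) and none called. Dio2 itself was at 9.15, 8.70, 8.31 and 8.73 in Ala and at 9.04, 8.21, 8.45 and 7.91 in Thr. The arrays of both genotypes were interspersed, and the difference was 0.32 ± 0.25 (adjusted p = 0.971). Dio3 differed by 0.42 ± 0.55 around background, and the receptor genes Thra and Thrb by -0.00 ± 0.20 and 0.21 ± 0.23. Slc7a8, an amino acid transporter that also carries thyroid hormones, was at 14.11 to 14.36 in Ala and 13.30 to 13.97 in Thr, without overlap (0.48 ± 0.16, adjusted p = 0.834). Slco1c1, the thyroxine transporter of brain vessels and astrocytes, differed by 0.43 ± 0.16 (adjusted p = 0.878). Crym, which binds T3 in the cytosol, differed by 0.99 but was at 8.70 on Ala 1 and 8.73 on Thr 5, against 9.87 to 12.30 on the other arrays.

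Genes known to be induced by T3 in brain were balanced, with 15 of 27 negative and a median of -0.02, and none was called. Klf9, an immediate target of the T3 receptor, was at 13.32 on Ala 1 and at 11.96 to 12.46 on all other arrays (0.34 ± 0.24). Hr was below background in both groups (-0.13 ± 0.23). Itih3 and Flywch2 had the smallest p, at -0.87 ± 0.23 and -0.74 ± 0.27 (adjusted p = 0.491 and 0.861), and Nrgn, neurogranin, differed by 0.38 ± 0.17. Genes known to be repressed by T3 were positive in 12 of 15 with a median of 0.24, none called. Of these, Syce2 differed by 0.69 ± 0.24, with groups that overlapped, and Marcks, a substrate of protein kinase C, by -0.53 ± 0.17. The 4 Ala arrays all lay above the 4 Thr arrays for 2 members (all genes, 1.61%) and all below them for 1, Marcks (all genes, 1.57%).

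The unfolded protein response, which raises chaperones and degradation enzymes when misfolded protein gathers in the endoplasmic reticulum, showed 15 members negative and 15 positive of 30, a median of 0.00 and no call. Hspa5, its main chaperone, was at 15.34, 15.71, 16.31 and 15.54 in Ala and at 15.41, 15.73, 15.99 and 15.82 in Thr (-0.01 ± 0.20). Ddit3, the factor CHOP of the late response, differed by -0.16 ± 0.19. The mean level of the 30 genes was 10.06 to 10.14 on the Ala arrays and 10.05 to 10.13 on the Thr arrays. Selenos, a selenoprotein of the degradation complex in this membrane, was the member whose groups did not overlap (0.65 ± 0.22, adjusted p = 0.834). Of 11 genes of the ubiquitin machinery that acts on type 2 deiodinase 7 were positive, with Eloc, elongin C, at 0.34 ± 0.13, and none was called.

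Glutathione and antioxidant genes other than Gpx3 differed by -0.57 to 0.38. Gpx3 was 1 of 25 members and the only call, while 17 were positive and the median was 0.11. Its relatives Gpx1, Gpx4, Gpx7 and Gpx8 differed by -0.14, 0.06, -0.21 and 0.20, and the metallothioneins Mt1 and Mt2 by -0.16 ± 0.19 and 0.31 ± 0.24.

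In the mitochondrial list 23 of 28 members were positive with a small median of 0.08 and no call. Ndufs1, a complex I subunit, was at 11.96 to 12.40 in Ala and 11.23 to 11.79 in Thr, without overlap (0.64 ± 0.17, adjusted p = 0.50). Cholesterol synthesis had 13 of 16 negative with a median of -0.10. Immediate early genes were positive in 15 of 21 with a median of 0.19, which became -0.07 without Ala 1, the array with the highest level of the list (9.67), and Dusp6, a phosphatase induced by ERK signalling, differed by 0.58 ± 0.24. Genes of corticosteroid action were positive in 9 of 15 with a median of 0.09, or -0.01 without Ala 2. Hsd11b1, which regenerates active glucocorticoid, was at 8.90, 8.82, 8.20 and 8.04 in Ala and at 7.88, 7.92, 7.60 and 7.67 in Thr (0.72 ± 0.22, adjusted p = 0.733), and Zbtb16, a glucocorticoid-induced factor, differed by 0.99 ± 0.35, both without overlap. Ribosomal protein genes had a median of -0.03 over 19.

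Glial and vascular markers had no call, and the medians of the glial lists changed sign when 1 array or another was left out. Medians were -0.16 over 15 oligodendrocyte genes, -0.04 over 12 astrocyte genes, -0.18 over 11 microglial genes and -0.07 over 19 vascular and meningeal genes. Mbp, the myelin basic protein gene, varied widely within each genotype, at 15.90, 16.25, 12.57 and 14.04 in Ala and at 16.47, 15.03, 14.11 and 15.51 in Thr. Ala 1, Ala 2 and Thr 5 were highest, and the spread within a genotype exceeded the difference of -0.59 ± 0.69. In blood markers 4 of 4 were negative with a median of -0.17, in liver genes 5 of 8 positive, and Alb and the urinary protein gene Mup19 were highest on Ala 2 and Thr 7.

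Mid1, a ubiquitin ligase gene of the X chromosome, was at 9.30, 9.74, 8.76 and 10.76 in Ala and at 11.16, 11.11, 11.26 and 10.88 in Thr. The groups did not overlap (-1.46 ± 0.33, adjusted p = 0.343), and without Ala 4 it was called (-1.84, adjusted p = 0.0409). Its difference from the other regions was -0.14 and not called, the regional differences being -1.14 in cerebellum, -1.27 in hippocampus, -1.48 in prefrontal cortex and -1.39 in striatum. Cd59a, a complement inhibitor, differed by 0.93 ± 0.40 in the amygdala with overlap (adjusted p = 0.943) and by 0.86 to 2.19 elsewhere. Zfp976 differed by -1.17 ± 0.34 (adjusted p = 0.636). Of the 20 tested genes nearest to Dio2 on its chromosome, 10 on each side, 0 were called and 0 had an unadjusted p under 0.05 with limma, and their differences ran from -0.46 to 0.32. Genes too dim to be tested were passed over.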

How the data were processed

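Total RNA was hybridised to Affymetrix arrays. The deposited values are log2 signals that the authors made with RMA, per the submitters' processing notes, which give no version. The highest value, 19.93, is above what unscaled log2 scanner values reach, and the extra step is not given in the sources used here. Of 28846 rows, 6640 were controls, 19572 had 1 gene symbol in the platform annotation, 0 several, and 2634 transcript rows none. Per gene the row with the highest mean was kept (19505 genes, 55 with several rows). Genes above the 30th percentile (log2 4.60) on at least 4 of the 8 arrays were tested. The fit used limma 3.58.1 in R 4.3.3 (lmFit, eBayes with a trend, 6 residual degrees of freedom) on the 8 arrays alone, with Benjamini-Hochberg adjustment over 13377 genes. Contrasts with other regions used 40 arrays (14978 genes), taken as independent. All adjusted p-values are from these limma fits. The fits were also run on simulated data with independent noise for each gene and array, which lack the shifts in tissue markers between arrays seen here. Array number limits the precision.

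Members and the 35 gene lists (668 entries, 610 on the array, 548 tested) were chosen with earlier results of these data known, so lists are described by counts and medians only. Named genes were the called genes of either fit, the 5 smallest p where fewer were called in a direction, a fixed set of genes of hormone action and protein folding with Cd59a, Mid1 and Zfp976 (1 item is not reported here), and of each list the 2 smallest p and the 2 highest levels. Grp, Foxp2, Crym, Glra2, Glra3, Peg3, Ndn, Prkcd, Vgf, Chga, Chgb, Cpe, Gpx1, Gpx4, Gpx7, Gpx8, Cyp3a11, Gabra6, Cbln3, Pcp2, Fat2, Zic1 and Calb1 were added after their values were seen. Alternatives covered the filter, scaling, rows, variance estimate, array weights, tissue covariates and arrays left out.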

Additional observations from a re-analysis of the deposited data

Results flagged for a closer look

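In 142 groups of 4 arrays, 10 had 1 array far from the other 3, where chance gives about 1 in 20. In Thr 5, Barhl2 was at 6.93 against 7.47 to 7.50 on the other Thr arrays, Dio3 at 4.08 against 5.23 to 5.42, the hypothalamus list at 5.33 against 6.01 to 6.04, the list of thyroid hormone handling at 9.47 against 9.96 to 9.99, and the ribosomal proteins at 13.10 against 12.78 to 12.81. In Ala 1, the striatum list was at 11.42 against 8.45 to 8.64 and the neuropeptide precursors at 7.91 against 7.57 to 7.60. In Ala 2 the corticosteroid list was at 8.55 against 8.35 to 8.36, in Thr 8 the choroid plexus list at 5.81 against 6.20 to 6.27, and in Thr 7 the liver list at 7.40 against 5.92 to 6.14. Of these 10 flags 5 are on Thr 5.

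The genotype difference in the amygdala departed from the mean of the other 4 regions in 12 genes, by the test of that difference. It was lower in the amygdala by -2.65 for Gpx3, -2.41 for Gabrq, -2.13 for Barhl2, -1.97 for Gpr165, -1.72 for Zim1, -1.63 for Avp, -1.49 for Cartpt, -1.32 for Magel2, -1.25 for Scg2 and -1.03 for Vwa5b1. It was higher by 1.37 for Olfr898 and 1.46 for Cyp3a11. Avp and Magel2 had means below background in both genotypes and passed the filter on dim genes through the 4 Thr amygdala arrays alone. Cyp3a11 exceeded the filter's threshold on 2 Ala and 0 Thr amygdala arrays and on 9 arrays of other regions, and Olfr898 had a Thr mean below background.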

How the results depend on the processing

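The 5 calls became 18 with all 40 arrays in 1 fit and 3 with robust eBayes. They were 4 to 7 under the other filters, scalings, variance estimates, rows, weights and covariates, 6 without Ala 1 and 2 (3 of them shared), and 0 to 12 with each array left out in turn. The 12 calls of the difference from other regions became 2 to 14 with each array left out, and 3 with Ala 1 and Thr 5 both left out, a choice made after seeing the data that gave 6 calls in the amygdala alone, 4 of them shared. Over 23 alternatives the call was kept 18 times for Barhl2, 17 for Gpx3, 16 for Pbx3, 15 for Cartpt and 9 for Gabrq, always with a negative sign. Of 3212 values of 142 named genes under alternatives, 40 lost a call, 24 gained one and 0 reversed. Of the 35 list medians, 20 changed sign in at least 1 alternative. The 15 that did not were those of the 4 amygdala lists, excitatory and inhibitory neurons, hypothalamus, blood, T3-repressed genes, antioxidants, neuropeptides, granins, imprinted genes, semaphorins and cholesterol synthesis. No paired analysis was possible because the arrays of the 2 genotypes share no replicate numbers. Genes near background, such as Gabrq and Barhl2 in Ala, have only an upper bound there.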
